A study of Saccharomyces cerevisiae with 4 samples.

Results

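Transcripts near chromosome ends were taken as all mapped RNA molecules whose start and end both lay within 20000 bases of a chromosome end in genome build R64, on either strand and of any class. Of 425462 distinct isoforms (pairs of 1 start and 1 end position) with 1833796 reads, 5015 isoforms with 9173 reads met this rule. These were 0.500% of the reads (95% Wilson interval 0.490 to 0.511%) and 1.18% of the isoforms, on 5.30% of the nuclear genome. The RNA came from a single group, strain FSY3636 of Saccharomyces cerevisiae (MATa, of S288c origin) with a delta rrp6::kanMX4 deletion, grown in YPAD glucose medium to OD 1. It was measured by TIF-Seq, which circularises each full-length cDNA so that the cap site and the poly(A) site of 1 RNA molecule are read as a pair. The 4 libraries (2 cultures with 2 preparations each) were deposited as 1 pooled count. No wild-type library was part of the series, so all levels describe the mutant, and no value has a replicate error or a test between samples. Intervals on shares (Wilson) and on counts (exact Poisson) cover counting error only.

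The ends of yeast chromosomes carry terminal TG-rich repeats, followed inward at many ends by Y′ elements, then by X elements and by gene families that occur in near-identical copies at several ends. Genes placed there are known to be repressed by the Sir silencing proteins, and the silent mating locus HML lies in such a region. Rrp6 is an exonuclease subunit that the exosome has in the nucleus, where it normally removes short noncoding RNAs whose transcription is ended by the Nrd1-Nab3-Sen1 complex. Telomeric repeat RNA is known in yeast to be made from the subtelomere toward the chromosome end.

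The sequences below show the RNAs on which the results turn, read 5′ to 3′ from the RefSeq R64 genome. Capitals mark GTAG and GTAA, letters bound by Nrd1, TCTTG, letters bound by Nab3, or, in the promoter of CHA1, TATAAA. The first 4 are the beginnings of unannotated RNAs, the RNA from the DLD3 promoter being the most abundant of all unannotated ones near a chromosome end.
DLD3 divergent RNA, first 300 bases, chrV:15689-15988, minus strand: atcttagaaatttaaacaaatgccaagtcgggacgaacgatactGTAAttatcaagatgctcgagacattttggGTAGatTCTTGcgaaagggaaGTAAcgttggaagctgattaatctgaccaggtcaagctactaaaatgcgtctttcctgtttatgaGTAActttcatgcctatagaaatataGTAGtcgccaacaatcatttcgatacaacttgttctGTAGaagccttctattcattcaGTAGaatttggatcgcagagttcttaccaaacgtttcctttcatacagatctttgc
ERO1 divergent RNA, first 200 bases, chrXIII:13418-13617, plus strand: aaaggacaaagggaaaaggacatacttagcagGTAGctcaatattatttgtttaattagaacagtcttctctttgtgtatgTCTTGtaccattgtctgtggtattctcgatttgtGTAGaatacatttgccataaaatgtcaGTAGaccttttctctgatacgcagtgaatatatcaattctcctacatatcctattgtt
RNA downstream of MAL32, first 213 bases, chrII:807379-807591, plus strand: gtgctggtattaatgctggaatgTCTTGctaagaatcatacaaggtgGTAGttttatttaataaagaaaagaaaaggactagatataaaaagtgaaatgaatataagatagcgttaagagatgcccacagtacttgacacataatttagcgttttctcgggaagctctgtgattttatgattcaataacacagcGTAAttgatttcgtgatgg
RNA nearest a chromosome end among those with at least 5 reads, first 300 bases, chrIX:436548-436847, plus strand: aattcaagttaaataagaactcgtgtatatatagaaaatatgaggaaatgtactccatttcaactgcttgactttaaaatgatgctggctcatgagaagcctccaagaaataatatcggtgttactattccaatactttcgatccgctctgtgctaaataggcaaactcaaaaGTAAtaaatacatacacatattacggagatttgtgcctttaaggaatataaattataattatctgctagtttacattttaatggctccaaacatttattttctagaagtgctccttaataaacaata
The next pair shows DNA upstream of IMD2 and FET4, genes at which RNAs that began upstream mostly ended before the ORF was complete. The FET4 stretch begins at the start site 915066, which had 76 reads. It does not reach the starts of most RNAs ending inside the FET4 ORF, whose median start was −188 from the start codon. The IMD2 stretch begins 50 bases before the most used upstream start and stops short of position −106 from the start codon. Its TCTTG ends on the first base of RNAs from that start, so RNAs from there or further downstream lack the whole motif. The RNA 554174 to 554388 held 1 Nrd1 match, past the printed stretch, and 0 Nab3 matches.
IMD2 upstream region, chrVIII:554124-554289, plus strand: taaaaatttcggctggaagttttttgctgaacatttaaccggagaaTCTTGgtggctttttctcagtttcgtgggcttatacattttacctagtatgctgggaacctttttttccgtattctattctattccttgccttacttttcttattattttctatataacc
FET4 upstream RNA, first 250 bases, chrXIII:914817-915066, minus strand: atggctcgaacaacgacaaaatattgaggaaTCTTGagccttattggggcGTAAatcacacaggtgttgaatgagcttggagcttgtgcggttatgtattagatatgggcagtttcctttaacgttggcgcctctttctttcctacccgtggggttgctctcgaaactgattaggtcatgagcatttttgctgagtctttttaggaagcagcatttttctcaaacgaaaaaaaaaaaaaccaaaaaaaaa
The last pair gives the 150 bases before the start of CHA1, the fourth most abundant mRNA near a chromosome end, and the terminal repeat of the right end of chromosome VI.
CHA1 promoter, chrIII:16900-17049, minus strand: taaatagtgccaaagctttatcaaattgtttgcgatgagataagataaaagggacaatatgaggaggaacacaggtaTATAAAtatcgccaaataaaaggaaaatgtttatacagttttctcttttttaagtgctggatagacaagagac
Right terminus of chromosome VI, chrVI:270102-270161, plus strand: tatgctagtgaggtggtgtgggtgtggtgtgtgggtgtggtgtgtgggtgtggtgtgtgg

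The DLD3 divergent RNA held 7 Nrd1 matches and 1 Nab3 match in its first 300 bases. The ERO1 divergent RNA held 3 and 1 in 200 bases, while the RNA nearest a chromosome end held 1 and 0 in 300 bases. All 8 stretches began with 30 bases found at a single place in the genome.

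Reads were sparse near the chromosome ends. The 32 end windows, 640 kb in all, had 14.3 reads per kilobase, against 159.6 per kilobase in the rest of the genome, an 11.1-fold lower density. Much of this sequence is repeated. Only 52.9% of the 30-base stretches in the windows occurred once in the genome, against 95.8% elsewhere, and 98.4% of the window isoforms had unique first and last 30 bases. Per kilobase of unique sequence, and counting only such isoforms, the density was 26.8 reads in the windows and 166 in the rest, a ratio of 0.161 (95% Poisson interval 0.158 to 0.165). Isoforms with a single read made up 80.5% of those in the windows and 72.0% of those elsewhere. In the windows 91 isoforms reached 10 reads and held 27.7% of the reads, against 66.4% in isoforms of that size elsewhere. The most abundant isoform near an end had 130 reads.

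The ends differed widely. The right end of chromosome IX had 1971 reads, 21.5% of all window reads, followed by XIII right with 981, V left with 930, XIII left with 734 and VI right with 636. These 5 ends held 57.3% of the reads, and the median end had 147.5. The left ends of IX and X had 0 reads. Only 1.82% of IX left and 1.00% of X left was unique sequence, and 97.8% of their 30-base stretches were shared between them. The 8 ends with less than 20% unique sequence had 340 reads in all, of which 266 were at VIII right, and the 19 ends with more than 50% unique sequence had 40 reads or more each, with a median of 299. Across the 32 ends, Spearman's rho between unique share and reads was 0.64, given as a description, since ends share sequence. How much of the low counts came from reads that fit several ends was not tested. VI right was 99.9% unique and had 31.8 reads per unique kilobase, below the 166 of the rest of the genome.

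**Figure D1:**
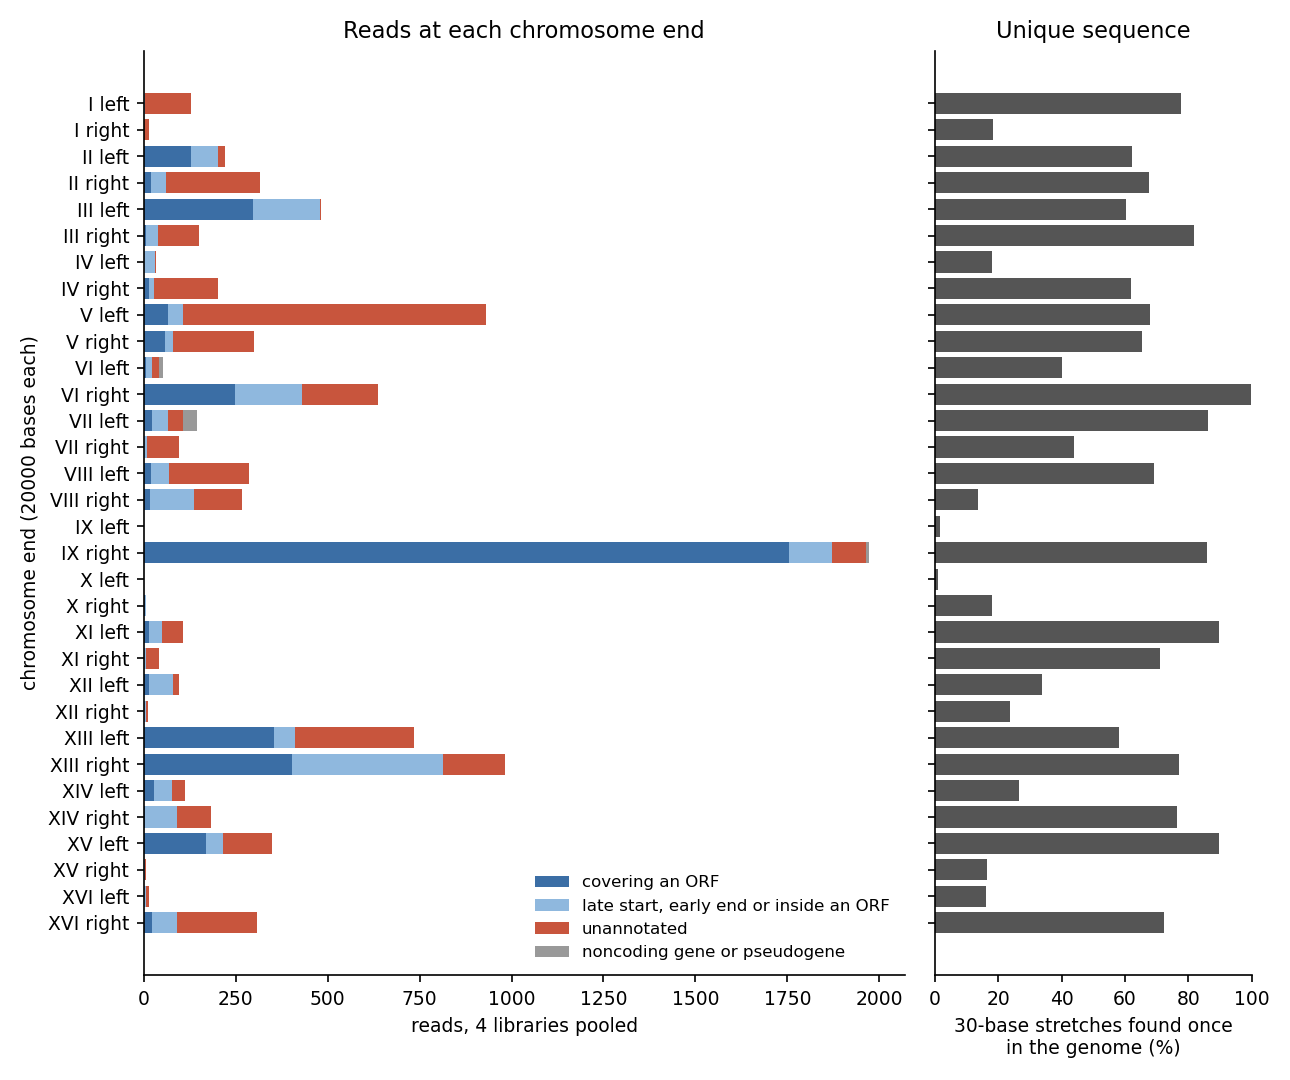
Reads at each of the 32 chromosome ends (left panel, horizontal axis in reads of the 4 pooled libraries, coloured by class) and the share of 30-base stretches found once in the genome (right panel, percent). IX right stands out with 1971 reads, mostly covering an ORF, while IX left and X left have 0 reads and almost no unique sequence.

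Reads were fewest next to the terminus. Starts within 5000 bases of an end had 200 reads, those at 5001 to 10000 bases 1790, those at 10001 to 15000 bases 2336 and those at 15001 to 20000 bases 4847. Per unique kilobase these were 4.41, 23.7, 24.4 and 38.4 reads. In steps of 1000 bases, the first 5 steps held 0 to 8.45 reads per unique kilobase, and further in the values had no steady order. They were 45.2 reads per unique kilobase at 5001 to 6000 bases, 6.71 at 7001 to 8000 bases and 7.87 at 19001 to 20000 bases. The highest, 51.8 at 15001 to 16000 bases and 88.9 at 16001 to 17000 bases, contain the start sites next to DLD3 and at HYR1. No read started within 1000 bases of an end. The nearest start lay 1411 bases from an end. The nearest 3′ end lay 754 bases from an end, on 1 read at I right.

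The annotated telomere features, 32 stretches of 431 to 13897 bases of which 17 hold a Y′ element, were overlapped by 55 reads on 37 isoforms, and 48 of these reads ran toward the end. Reads were found on 6 features, with 30 at VIII right and 12 at VII right, and only 4 reads lay wholly inside a feature. These features were 8.79% unique, against 65.3% for the rest of the windows. No read ended within 500 bases of a chromosome end, so RNA reaching the terminal repeats was not detectable in this table. Taken as a one-sided limit, finding 0 is compatible with as many as 3 reads, 1.64 CPM (reads per 1000000 of the whole table). The upper bound of the two-sided 95% Poisson interval at 0 is 2.01 CPM. Both limits hold only for RNA whose reads can be placed, so they set no bound for RNA of repeated sequence. Among merged transcripts (sites within 20 bases joined) with at least 5 reads, the nearest to an end was the RNA at IX right, 436548 to 436941, with 16 reads reaching to within 2928 bases of the end. Next came an RNA at VI right, 266148 to 266887 on the minus strand, with 6 reads and its nearer edge 3265 bases from the end. The other three among the nearest 5 shared the IRC7 end on VI right, 4439 to 4451 bases from the terminus, with 76, 13 and 11 reads.

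**Figure D2:**
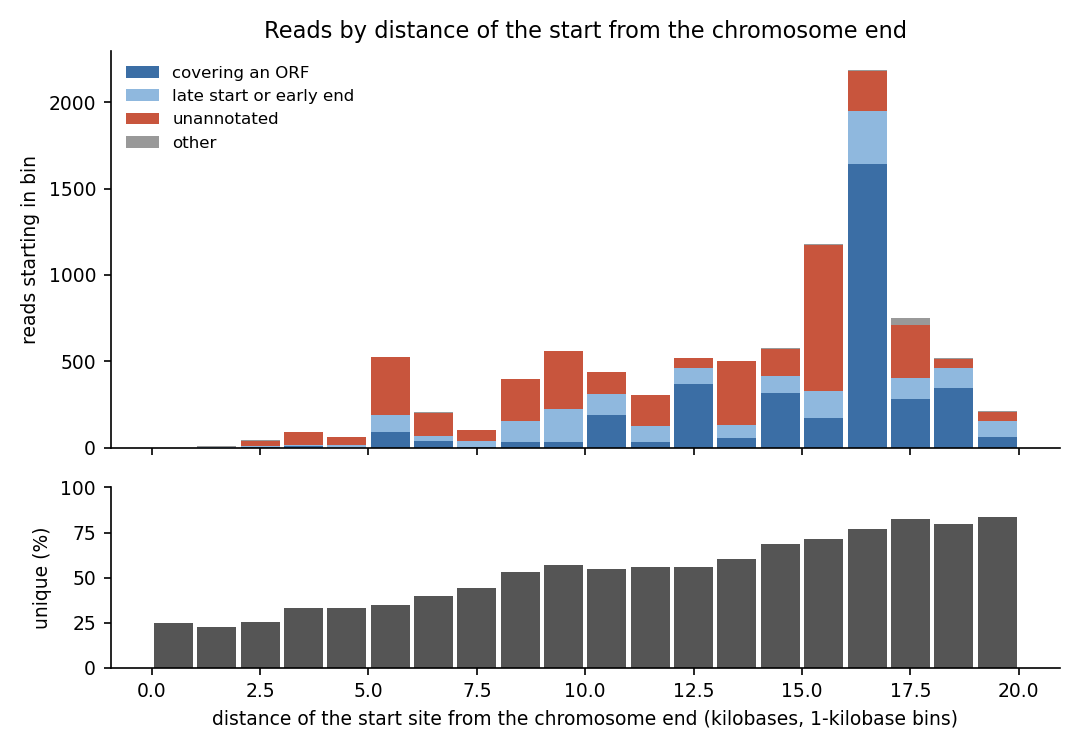
Reads by distance of their start site from the chromosome end (upper panel, kilobases in 1-kilobase bins, all 32 ends summed, coloured by class) and the unique share of the sequence in each bin (lower panel, percent). The first bin is empty, and the highest bin, from 16 to 17 kilobases with 2188 reads, contains the start of HYR1.

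Of the window reads, 65.4% (64.4 to 66.4%) ran toward the chromosome end, and 20 of the 30 ends with reads had more reads toward the end than away, 8 had more away and the remaining 2 were even. Counted by isoforms, the share was 58.0%. Without the right end of IX, an exclusion chosen after seeing the data, the share of reads was 64.2%. That end was itself at 69.9%, with HYR1 pointing toward the end and NRE1, IRC24 and GTT1 away. The 1310 sense reads of HYR1 and the 727 reads divergent from DLD3 all ran toward the end, and the share without them was not computed. Of the 231 ORFs lying whole in the windows, 130 point toward the end. In the outermost and innermost 5000-base bands the share was 58.5% and 77.9%, and in the bands between 55.9% and 47.3%.

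The mix of RNA classes differed from the rest of the genome. Reads covering an ORF from before its start codon to past its stop codon were 40.0% (39.0 to 41.0%) of the window reads and 77.5% elsewhere. Unannotated reads, which overlap no annotated gene on their strand, were 39.7% (38.7 to 40.7%) of the window reads and 4.91% elsewhere. Most of these were intergenic, 35.5% of window reads against 2.06% elsewhere, and 4.25% were antisense to an ORF, against 2.85%. Reads that started inside an ORF and ran past its stop codon (late starts) were 15.9%, against 9.98%. Reads that started upstream and ended inside an ORF (early ends) were 3.66%, against 1.97%. Annotated noncoding RNA genes had 0.425%, against 5.22%. Over all these classes the median isoform was 654 bases long. Unannotated RNAs had a median length of 374 bases in the windows and 378 bases elsewhere, and early-ending RNAs 257 and 475 bases.

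Set against the amount of unique sequence, the main classes behaved differently. Covering reads had a density of 10.8 per unique kilobase (10.5 to 11.2) in the windows and 129 elsewhere, a ratio of 0.0839. Without IX right that ratio was 0.0460. Unannotated reads had 10.6 per unique kilobase (10.3 to 11.0) in the windows and 8.13 elsewhere, a ratio of 1.31, or 1.04 (1.00 to 1.08) without the RNAs divergent from DLD3. Antisense reads were sparser in the windows, at 1.12 against 4.74 per unique kilobase, and intergenic reads denser, at 9.50 against 3.39. The windows hold more sequence without ORFs, 51.0% of their bases against 25.8% elsewhere. Counting each strand by itself, 24.5% of window bases lay in an ORF, against 37.1% elsewhere. The antisense and covering densities were not rescaled for this. Per kilobase of unique sequence without an ORF on either strand, intergenic reads were at 16.2 in the windows and 13.2 elsewhere, a ratio of 1.23 (1.19 to 1.27), and at a ratio of 0.950 (0.913 to 0.988) without the DLD3 RNAs. The high share of unannotated reads near the ends thus went with a low density of mRNA reads. The density of unannotated reads was 1.31 times that elsewhere, or 1.04 times without the DLD3 RNAs. Those RNAs have the largest divergent count and were left out of the windows only, with no such exclusion elsewhere.

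**Figure D3:**
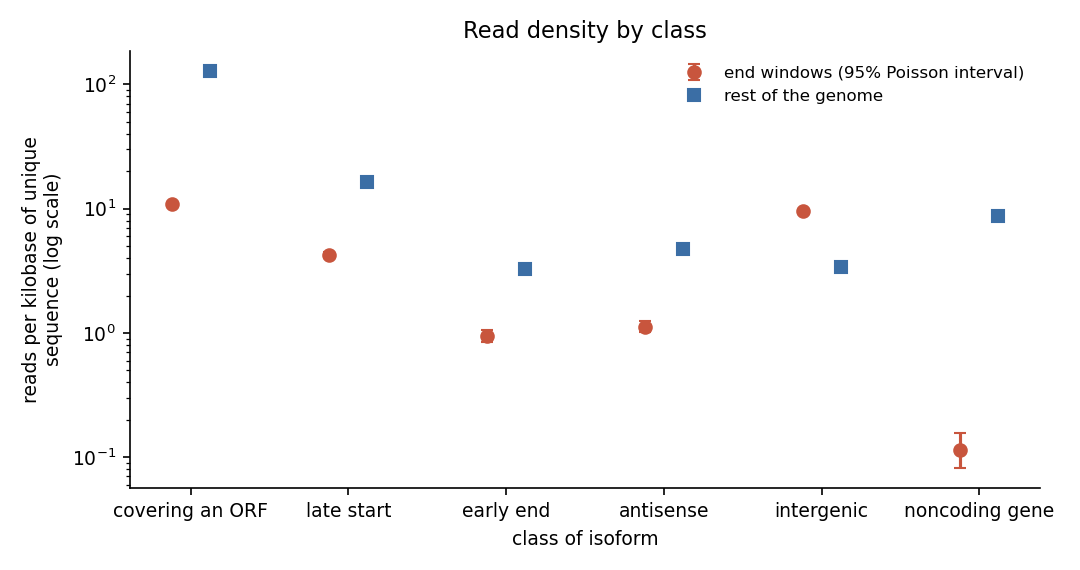
Reads per kilobase of unique sequence (vertical log axis) by class of isoform in the end windows (circles, bars for the 95% Poisson interval) and in the rest of the genome (squares). Covering reads are at 10.8 in the windows and 129 elsewhere, while intergenic reads are at 9.50 and 3.39.

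Few ORFs near the ends had a complete mRNA. At least 1 covering read was found for 66 of the 231 window ORFs, 28.6% (23.1 to 34.7%), while 74.7% of all 6002 nuclear ORFs had one. At least 10 covering reads were found for 30 window ORFs, 13.0%, against 48.7% of all ORFs. No read of a sense or antisense class was assigned to 113 of the 231 window ORFs, and the share of such ORFs elsewhere was not computed. Of the 91 window ORFs with at least 90% unique sequence, 55 had a covering read, 60.4% (50.2 to 69.9%), against 78.2% of such ORFs elsewhere. Of the 127 window ORFs with less than 50% unique sequence, 5 had one, 3.94% (1.69 to 8.89%), against 18.6% elsewhere. Recovery varied with length. Among ORFs with at least 90% unique sequence and up to 500 coding bases, 22.2% had at least 10 covering reads in the windows and 64.9% elsewhere. At 501 to 1000 coding bases these shares were 42.3% in the windows and 78.9% elsewhere, at 1001 to 1500 they were 39.1% and 63.4%, and at 1501 to 2000 they were 29.4% and 35.2%. Above 2000 coding bases 0% of 7 ORFs did in the windows and 8.08% elsewhere. Levels of different genes are therefore given as reads of whole molecules, without a comparison per length.

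Of the 3740 covering reads on window ORFs, 65.6% fell on 5 genes. HYR1, a glutathione peroxidase that signals peroxide to the Yap1 factor, had 1232 reads or 672 CPM (635 to 710) on 198 isoforms, 32.9% of the total. It lies on the right arm of IX, 16270 bases from the end, and none of its 1310 sense reads ended early. ADH6, an NADPH-dependent alcohol dehydrogenase on XIII right, had 349 reads (190 CPM, 171 to 211) on 173 isoforms. Its neighbour in rank was NRE1 on IX right with 327 reads (178 CPM, 160 to 199), so their intervals overlap. CHA1, the catabolic serine and threonine deaminase on III left, had 285 reads (155 CPM, 138 to 175), and COX14, a cytochrome oxidase assembly factor on XIII left, 262 reads (143 CPM, 126 to 161). The CHA1 promoter printed above has 1 TATAAA.

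The level dropped after these 5. IRC24 (a reductase), MIX23 (a protein of the mitochondrial intermembrane space) and RPN12 (a subunit of the proteasome lid) had 128 reads each. IRC7, a beta-lyase, had 115 reads although its ORF ends only 4936 bases from the VI right terminus. YOL159C-A had 100 reads, CSS3 and the glutathione transferase gene GTT1 66 each, the coatomer gene RET2 65, YML131W 56 and DLD3 46. All 15 of these ORFs were 100% unique. HYR1, NRE1, IRC24 and GTT1 are neighbours on IX right, where 1756 of the 1971 reads covered an ORF.

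**Figure D4:**
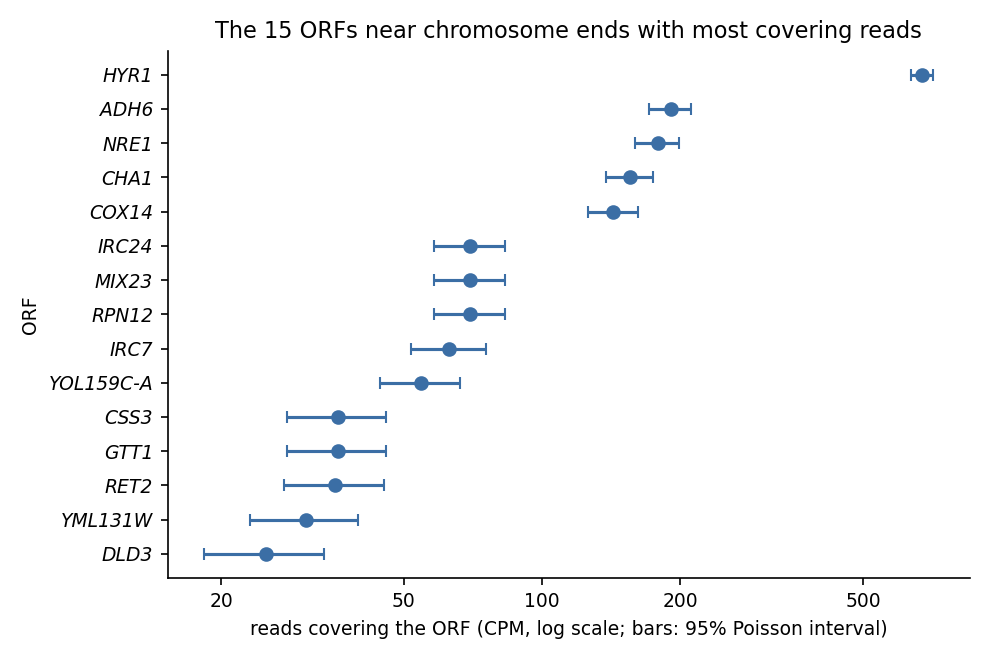
Covering reads of the 15 most read ORFs near chromosome ends (horizontal log axis in CPM, points with 95% Poisson intervals). HYR1 at 672 CPM is separated from ADH6 at 190 CPM, and the intervals of ADH6 and NRE1 overlap, as do those of NRE1 and CHA1.

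The untranslated stretches of these mRNAs were short. For 19 window ORFs 20 or more reads covered the ORF, and their median distance from start site to start codon was 29 bases, against 40 bases for ORFs elsewhere. The median distance from stop codon to end site was 101 bases, against 119. Single genes departed from this. Covering RNAs of YER187W began a median of 718 bases before the start codon, but 75% of its 28 covering reads were 1 isoform. YOL159C-A ended 531 bases and IRC7 477 bases after the stop codon, while MIX23 started a median of 0 bases before its start codon.

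Gene families typical of chromosome ends were mostly without complete mRNAs, and mostly repeated. Of 19 seripauperin and related mannoprotein genes in the windows, which encode cell wall proteins known from anaerobic growth, 1 had covering reads (PAU13, 3 reads), and the median unique share of these ORFs was 9.91%. The 8 YRF1 helicase genes of the Y′ elements had 0 sense reads and at most 1.20% unique sequence. Of 11 COS genes, which encode membrane proteins that promote the sorting of other membrane proteins, 3 had covering reads, with 6 for COS12, 4 for COS4 and 1 for COS6. COS9, COS10 and COS12, at 96.5%, 98.3% and 100% unique sequence, had 18, 12 and 9 sense reads of any kind. The 8 genes of vitamin B1 and B6 synthesis, the 3 hexose transporters, the 2 acid phosphatases, the 3 enolase-related genes and the 2 vacuolar sorting receptors had 0 covering reads, and the largest unique share among them was 46.9% (HXT17). The flocculin, biotin and silencing protein lists had no member in the windows.

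Other lists held single members with more unique sequence. In the disaccharide list, 2 of 9 had covering reads, with 18 for MAL33, the maltose activator, which had 40 sense reads, and 2 for MAL31. MAL11, also 100% unique, had 4 sense reads and none covering. In the aryl-alcohol dehydrogenase list, 4 of 5 had 1 or 2 covering reads each, and AAD4 had 28 sense reads. Of 2 iron uptake genes, ARN2 had 2 covering reads, and FRE2, 99.8% unique, had none. Of the 3 arsenic resistance genes, all 100% unique, the activator ARR1 had 49 sense reads of which 6 covered it, while the reductase gene ARR2 and the pump gene ARR3 had 1 sense read each. In all, 14 of the 80 window ORFs on these lists had covering reads, 17.5%, against the 28.6% of all window ORFs given above. Of the 78 members of the lists outside the windows 43 had covering reads, 55.1%, among them 9 of 11 mannoprotein genes. The covering reads of window members were 110 in total, of which 46 belonged to DLD3 and 16 to IMD2. FDH1, a formate dehydrogenase gene listed with DLD3, had 0 reads with 10.3% unique sequence.

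HML on III left, 11146 to 14849, had 0 overlapping reads. Of that region 32.8% was unique sequence, and the 2 ORFs HMLALPHA1 and HMLALPHA2 had 0% unique sequence, so an absence of reads over them cannot be told apart from reads that fit a further copy.

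1 start site stood out among the unannotated RNAs. The 10 merged unannotated transcripts with most reads held 24.9% of the unannotated reads, and 5 of these 10 shared 1 start, at 15988 on V left, where RNA ran away from DLD3 and toward the chromosome end. DLD3 encodes a D-lactate dehydrogenase. Starts at that site had 658 reads on 242 isoforms with 163 ends and lengths of 192 to 707 bases (median 357). The most abundant merged form, 15638 to 15988, had 300 reads, and the other 4, ending at 15593, 15717, 15666 and 15544, had 85, 73, 52 and 43. In all, 727 unannotated reads started within 500 bases upstream of the DLD3 start codon on the other strand (divergent position), against 46 reads covering DLD3, the largest divergent count of any nuclear ORF. Only 0.275% of these reads ended before A-rich genome sequence (at least 6 A in the next 10 bases), where priming inside an RNA is possible.

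ERO1, the essential thiol oxidase of the endoplasmic reticulum, came next with 255 divergent reads on 181 isoforms and 20 covering reads. Its divergent starts were spread over 35 positions, 211 to 493 bases upstream, and 15.3% of the reads ended before A-rich sequence. RDS1, a zinc cluster factor, had 73 divergent reads with 0 covering, and SEO1, a putative permease, 68 with 0 covering. Of these divergent reads, 37 for RDS1 and 24 for SEO1 lay on 1 exact pair of start and end. COX14 went the other way, with 36 divergent and 262 covering reads. Divergent RNAs made up 45.6% (44.0 to 47.2%) of unannotated window reads and 51.8% elsewhere, and 32.1% in the windows without those of DLD3. Among intergenic reads alone the shares were 47.4% and 47.1%. Intergenic reads starting within 500 bases after an ORF on their strand were 16.9% in the windows and 6.31% elsewhere, and those ending within 500 bases before one were 11.8% and 24.7%.

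**Figure D5:**
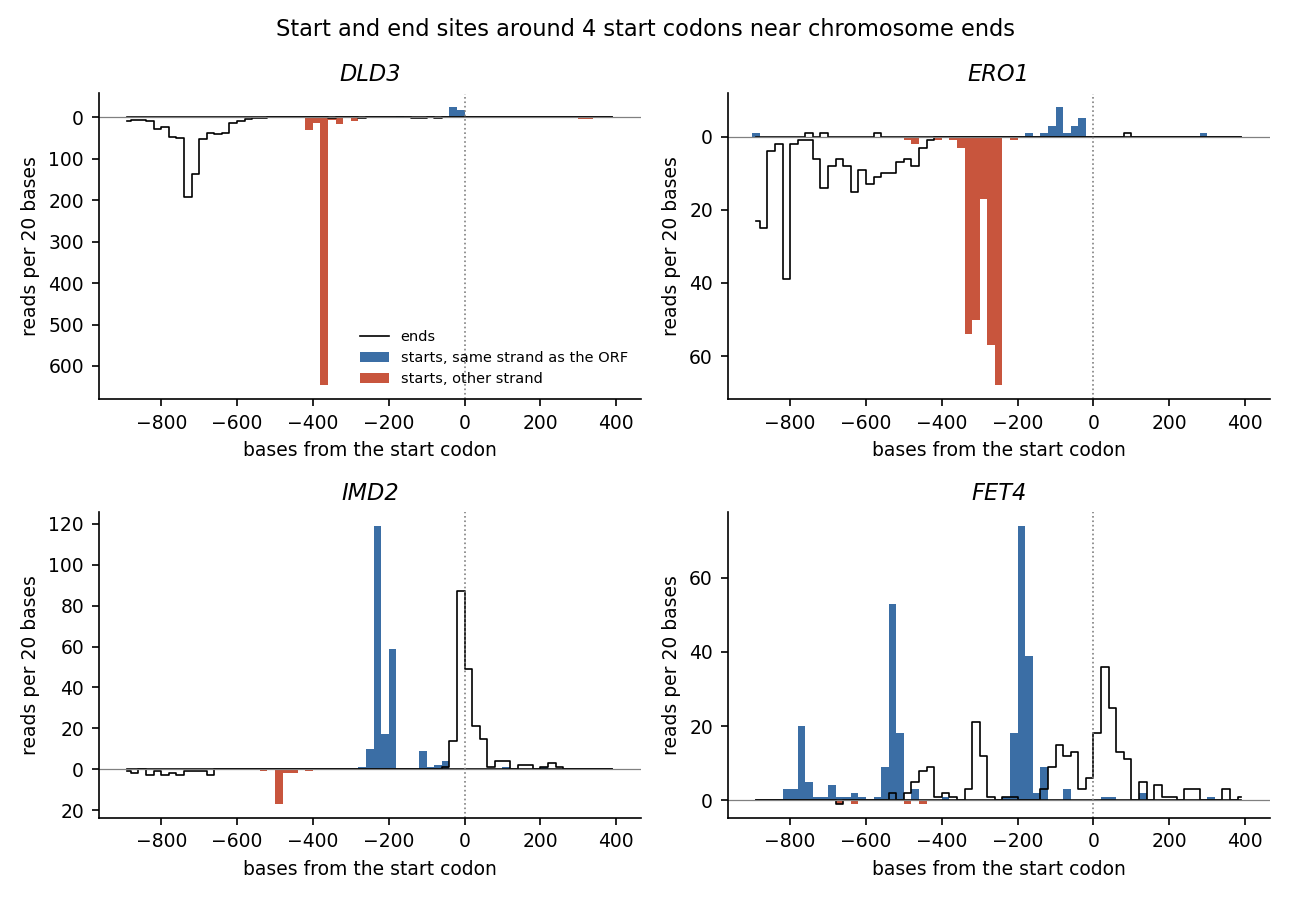
Start sites (bars) and end sites (black lines) around the start codons of DLD3, ERO1, IMD2 and FET4 (horizontal axis in bases from the start codon, vertical axis in reads per 20 bases, with the strand of the ORF drawn up and the other strand down). DLD3 and ERO1 have most starts on the other strand, and IMD2 and FET4 have starts on their own strand many of whose ends lie near the start codon.

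The other 5 of the 10 most abundant unannotated transcripts were not divergent. On II right, 274 bases after the maltase gene MAL32 and on its strand, starts at 807379 had 226 reads with 40 ends, and the merged forms ending at 807591 and 807980 had 84 and 56 reads. On IV right, an RNA of 798 bases, 1514303 to 1515100, had 76 reads. The RNA 554174 to 554388 on VIII right, with 96 reads, ended 8 bases before the IMD2 start codon.

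IMD2 encodes IMP dehydrogenase, the enzyme of guanine nucleotide synthesis, and is known for a choice of start sites by which upstream starts give short unstable RNAs. Of 222 reads that started within 400 bases before the IMD2 start codon, 102 (45.9%, 39.5 to 52.5%) ended before it, 104 (46.8%, 40.4 to 53.4%) ended inside the ORF and 16 (7.21%, 4.48 to 11.4%) covered it. Those ending before the start codon started at a median of −222 and were 214 bases long. Those ending inside the ORF started at a median of −221 and were 231 bases long. Reads covering the ORF started at a median of −106. The most used starts were −222 with 56 reads, −200 with 54, −221 with 29 and −232 with 28, while −106 had 8. Of the RNAs ending before the start codon, 51.0% ended before A-rich sequence, and of those ending inside the ORF 0%. The IMD2 ORF is 49.1% unique, and the part of reads that fit its copies was not tested.

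Early ends within window genes were concentrated on IMD2 and FET4, which held 69.0% of the 336 early-ending reads. IMD2 had 104 early ends among 134 sense reads, 77.6% (69.8 to 83.8%). FET4, the low-affinity iron transporter gene on XIII right, had 128 among 286, 44.8% (39.1 to 50.5%). The next were YOL159C-A with 4 of 115 (3.48%), RET2 with 2.15% and DIA1 with 2.11%, whose intervals overlap. Of the 21 window ORFs with at least 50 sense reads, only IMD2 and FET4 were above 20%, and 7.56% of the 2355 such ORFs elsewhere were.

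At FET4, 270 reads started within 800 bases before the start codon, in overlapping ranges of starts. The 123 reads ending before the start codon started at a median of −537 with a median length of 400 bases, and 48.0% of them ended before A-rich sequence. The 128 ending inside the ORF started at a median of −188 and ended at a median of 56 bases past the start codon, with 0.781% before A-rich sequence. The 19 covering reads started at a median of −140. A further 137 reads started inside the ORF, of which 54 were copies of 1 isoform.

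Antisense reads were found on 62 of the 231 window ORFs, 26.8% (21.5 to 32.9%), against 63.4% of all nuclear ORFs. Among ORFs with at least 90% unique sequence the shares were closer, 50.5% (40.5 to 60.6%) in the windows and 66.9% elsewhere. Among those with less than 50% they were 8.66% and 11.4%. Only reads that overlap no annotated gene on their own strand were counted, so mRNAs crossing an ORF on the other strand were not. The highest counts were 46 for YNR071C, a putative epimerase gene with 6 sense reads, 40 for ARR2 with 1 sense read, 36 for MSC1 with 22, and 29 for BDS1, a sulfatase gene, with 19. ECM34 and YHL042W tied at 24, with 0 and 12 sense reads. On 25 of the 231 window ORFs antisense reads outnumbered sense reads, and the share of such ORFs elsewhere was not computed. The antisense RNA of ARR2 starts at a divergent position upstream of ARR1.

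Some of these stacks rested on 1 exact pair of start and end. Among 43 merged window transcripts with at least 30 reads, 12 (27.9%) had at least 90% of their reads on 1 pair, against 9.66% of 5042 elsewhere, and together they held 612 reads. They include all 41 reads of the YNR071C antisense RNA, 72 of the 76 reads at IV right, 78 of the 84 reads ending at 807591 on II right, 35 of 36 reads of the main ARR2 antisense RNA, and late starts in HYR1 (59 reads) and FET4 (54 reads). The DLD3 divergent RNAs, by contrast, had 727 reads on 303 isoforms with at most 70 on 1 pair. Whether copies made by PCR were removed before counting is not given in the sources used here, and the part of such copies in these stacks was not tested.

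Motif shares were taken over start sites with at least 2 reads, merged within 20 bases. Sites close to each other share sequence, so the intervals are too narrow. TCTTG was found in the first 200 bases of 31.9% (26.1 to 38.4%) of 216 unannotated starts in the windows and of 42.3% of those elsewhere. It was found for 13.7% (8.17 to 22.0%) of covering starts in the windows and 15.1% elsewhere, and in 22.6% of all 200-base stretches of the windows and 27.7% of those elsewhere. GTAA was found for 72.7% (66.4 to 78.2%) of unannotated window starts and 64.03% elsewhere, with 59.3% and 57.3% of all stretches. GTAG was found for 40.3% and 50.3%, with 42.6% and 40.1% of all stretches. These 3 were searched on the RNA strand, and GTAG and GTAA can overlap by their shared G. TATAAA, searched on both strands in the 200 bases before the start, was found for 31.5% of unannotated window starts and 30.5% elsewhere, with 24.1% and 20.4% of stretches. TTAGGG, the letters bound by Tbf1, was found for 2.78% and 4.74%, with 5.78% and 4.50% of stretches. AATAAA lay in the last 60 bases of 9.24% of unannotated ends in the windows and 6.89% elsewhere, with 5.19% and 5.26% of stretches of that length.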

How the data were processed

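TIF-Seq measured capped and polyadenylated RNA of 1 group of 4 libraries, which the authors deposited as 1 pooled column of whole-number counts for each start and end position, so the depth per library is unknown. Novoalign 2.07.10, CASAVA and build R64 were named, per the submitters' processing notes, with roles not given in the sources used here. The positions deposited by the authors were used as 1-based R64 coordinates, and all fell within the chromosomes. Members and gene lists were chosen with earlier results of these data known.

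Each isoform was classed by the RefSeq R64 annotation (6002 ORFs, 411 noncoding RNA genes, 18 pseudogenes), in the order covering several ORFs or 1, early end, late start, inside, noncoding gene, pseudogene, antisense and intergenic. Sequence was called unique where its 30 bases occurred once on both strands of the nuclear genome. Classing and merging were tested on simulated isoforms. Python 3.11.15, numpy 2.4.6, pandas 2.3.3 and scipy 1.17.1 were used. Genes were named by rule: the 15 window ORFs with most covering reads, the 10 unannotated merged transcripts with most reads, the 5 ORFs with most antisense reads, the 5 merged transcripts nearest an end with at least 5 reads, the 5 ORFs with the highest early-end share among at least 50 sense reads, list members with at least 20 reads, and HML, IMD2 and DLD3. Other names were chosen after their values were seen. With 1 pooled column no replicate could be left out.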

Additional observations from a re-analysis of the deposited data

How the results depend on the processing

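The main values were 0.500% of all reads, a density ratio of 0.0898 to the rest of the genome, 40.0% covering, 39.7% unannotated, 65.4% toward the end, a median of 654 bases and 28.6% of ORFs covered. A value counts as moved where it left the 95% interval of the main one, and the cause was not tested. Under a setting that left out isoforms, all reads means the reads that remained in the whole genome, so a share can rise. Rules on read number, A-rich sequence and unique ends were applied to the rest of the genome too. Isoforms with at least 2 reads gave 0.336% of all reads, a density ratio of 0.0603, 52.7% covering, 33.9% unannotated, 72.3% toward the end, a median of 703 bases and 16.9% of ORFs covered. Those with at least 5 reads gave 0.249% of all reads, a density ratio of 0.0445, 57.5% covering, 31.2% unannotated, 78.0% toward the end, a median of 704 bases and 7.36% of ORFs covered. Windows of 10000 bases gave 0.0986% of all reads, a density ratio of 0.0362, 9.73% covering, 65.7% unannotated, 61.8% toward the end, a median of 430 bases and 12.0% of ORFs covered. Windows of 30000 bases gave 1.18% of all reads, a density ratio of 0.138, 51.6% covering, 28.8% unannotated, 57.6% toward the end, a median of 733 bases and 41.5% of ORFs covered. Leaving out isoforms that end before A-rich sequence gave 0.529% of all reads, a density ratio of 0.0950, 38.7% covering, 64.01% toward the end and a median of 644 bases. Asking for the start or the end in the window gave 0.512% of all reads and a density ratio of 0.0919. Without the most abundant merged transcript the values were 0.477% of all reads, a density ratio of 0.0856, 37.1% covering, 41.7% unannotated, 63.7% toward the end and a median of 632 bases. A further setting left out the reads of the right end of chromosome IX, a choice made after seeing the data. The values were then 0.393% of all reads, a density ratio of 0.0705 and 26.6% covering. Unannotated reads were then 49.3%, reads toward the end 64.2% and the median 547 bases. For this density ratio the sequence of that end was still counted in the windows, so it is lower than with that sequence left out too. Counting isoforms in place of reads gave 45.3% unannotated. Restricting to isoforms with unique first and last bases kept all 7 values within their intervals, and merging sites within 10 or 50 bases gave 3040 and 1704 merged transcripts, against 2408. No paired analysis was possible because the 4 libraries share 1 pooled column. For the same reason libraries cannot be told apart, and a gene with few reads is limited by depth. A count of 0 allows up to 3 reads as a one-sided limit, where reads of the gene can be placed.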

Other observations

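Late starts were frequent on some window genes with unique sequence. PDR18, a transporter gene on XIV right, had 68 late-starting and 0 covering reads, of which 60 were copies of 1 pair. AYT1, an acetyltransferase gene on XII left, had 55 late-starting reads and 1 covering read. CHA1 had 173 late-starting reads beside 285 covering ones, and IRC7 95 beside 115, so both had complete mRNAs too.

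RMD6 on V left had 12 early ends among 48 sense reads, just below the number of reads asked for above. Of its early-ending reads 25% ended before A-rich sequence, and of its 19 covering reads 63.2%.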
